A study of Mus musculus with 6 samples.

Results

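Cytoplasmic ribosomal protein genes were examined as a housekeeping reference in ATAC-seq data from mouse leukemia cells. A peak was a member when its nearest gene was named Rpl or Rps with a number (with or without a trailing a, l or x, and without the pseudogene ending -ps), Rplp0, Rplp1, Rplp2 or Rpsa, and when it lay at most 3000 bp from the transcription start site (TSS). By this rule 224 of 175929 peaks were members, and they belonged to 76 genes. Of these, 80 peaks lay at 30 genes of the small ribosomal subunit and 144 at 46 genes of the large subunit. The rule used names and distances and no measured change.

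All 6 libraries came from Usp18+/f UBCER-Cre AE9a cells, in which 1 allele of Usp18 is floxed and a Cre recombinase that tamoxifen activates is driven by the ubiquitin C promoter, so that it is not restricted to 1 cell type. AE9a, a shortened form of the AML1/ETO fusion protein, drives acute myeloid leukemia in mice. Recipient mice that had become sick were injected with oil (Usp18+/f, replicates 1, 2 and 4) or tamoxifen (Usp18+/Δ, replicates 1, 3 and 4), and 3 days from the first dose Lin- c-Kit+ GFP-marked leukemia cells were isolated from the spleen by sorting. Controls received no tamoxifen, so loss of the allele and the drug itself cannot be told apart. The labels do not tie a library to a mouse. The methods on RNA name, per group, the same number of mice as libraries here, with a shared set of sorted cells for the paired ATAC-seq, whereas the statement on replication gives ATAC-seq fewer biological replicates. Each n therefore counts libraries, and p-values measure the spread between these.

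Ribosomal proteins form, with ribosomal RNA, the small subunit, which decodes messenger RNA, and the large subunit, which joins amino acids. They are needed in nearly equal amounts, and their genes are among the most strongly transcribed in growing cells. Their promoters are mostly short, lack a canonical TATA box and begin transcription at a C within a run of pyrimidines, which in the mRNA is the 5′ terminal oligopyrimidine tract through which mTOR signaling controls translation. They are often used as a reference because every cell needs them, although mutations of several cause Diamond-Blackfan anemia or occur in leukemia.

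Sequences near the start sites are printed below to show what the accessible regions hold. RefSeq promoter windows (GRCm38.p6, the mm10 sequence, 250 bases before and 50 bases after the start) were matched to 55 of the 76 genes, where the window's start lay at most 100 bp from the TSS of the deposited annotation, and to 11389 genes in all. Each line gives 75 bases on the gene's strand, 60 before the start and 15 from it. Capitals mark a pyrimidine run of at least 6 bases that overlaps positions -5 to +10 around the start, or a match to the ETS motif CCGGAAG. Rps6 and Rpl4 carry such a run, Rpl19 carries one and has a low level among the genes, Rpl37 and Rpl11 carry the ETS motif, Rps19 carries neither, and Rpl3l is the paralog with the fewest tags at its own start.
Rps6 (chr4:86857353-86857427, minus strand): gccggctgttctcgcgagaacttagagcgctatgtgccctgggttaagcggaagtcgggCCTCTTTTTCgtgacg
Rpl4 (chr9:64173327-64173401, plus strand): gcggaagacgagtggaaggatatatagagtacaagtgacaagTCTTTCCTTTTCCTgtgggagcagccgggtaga
Rpl19 (chr11:98026864-98026938, plus strand): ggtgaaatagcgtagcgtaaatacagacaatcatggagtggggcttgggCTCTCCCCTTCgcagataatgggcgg
Rpl37 (chr15:5116553-5116627, plus strand): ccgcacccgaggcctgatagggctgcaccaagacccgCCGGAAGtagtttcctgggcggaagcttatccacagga
Rpl11 (chr4:136053379-136053453, minus strand): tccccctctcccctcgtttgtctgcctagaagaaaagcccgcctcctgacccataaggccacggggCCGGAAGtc
Rps19 (chr7:24884532-24884606, plus strand): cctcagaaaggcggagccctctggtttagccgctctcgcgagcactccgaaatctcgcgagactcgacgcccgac
Rpl3l (chr17:24727766-24727840, plus strand): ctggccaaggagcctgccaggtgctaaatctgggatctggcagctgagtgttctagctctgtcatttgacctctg

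Pyrimidine runs were frequent at the starts of ribosomal protein genes. A run of at least 6 pyrimidines overlapped positions -5 to +10 in 27 of 55 member windows (49.1%), against 24.7% of all windows. A C flanked by a pyrimidine on either side stood at the annotated start itself in 14 member windows (25.5%), among them Rps6, Rpl28, Rpl31 and Rplp2, against 5.96% of all windows. As annotated starts can be off by several bases, the latter share depends on the annotation.

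The ETS motif CCGGAAG, read on both strands of the 300 bases, was present in 20 of 55 member windows (36.4%), against 16.5% of all windows. The YY1 motif AAGATGG was present in 7 (12.7%), against 6.80%. Both occurred together in 2 member windows (3.64%), against 1.23%. The SP1 motif GGGCGG was present in 33 (60.0% against 61.6%), the NF-Y motif CCAAT in 19 (34.5% against 38.2%), the E-box CACGTG in 5 (9.09% against 9.89%) and the TATA box TATAAA in 4 (7.27% against 7.35%). The RUNX motif TGTGGT, the sequence that the AML1 part of the fusion protein recognizes, was present in 4 member windows (7.27%), against 13.2%. CCGGAAG and AAGATGG share the letters AAG and can overlap, and a match of letters is no evidence of binding. The median GC content was 57.0% in member windows and 60.3% in all windows.

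The libraries were sequenced to similar depths. Total tags ran from 57.4 to 74.7 M per library (1 M, 1000000 tags), tags in peaks from 17.5 to 21.1 M, and the median peak held 45.0 to 57.0 tags. Tamoxifen replicate 4 stood apart over all peaks: its log2 tags correlated with those of the oil libraries at a Pearson r of 0.960 to 0.964 and with tamoxifen replicates 1 and 3 at 0.949, whereas the latter correlated with each other at 0.968. Over the 224 member peaks the 15 library pairs correlated at 0.984 to 0.992. These are correlations across peaks, which are not independent replicates. Counts of members whose groups do not overlap are therefore also given without tamoxifen replicate 4. All 8 marker genes of leukemic myeloid progenitors (among them Kit, Cd34 and Mpo) had a promoter-proximal peak. Of the markers of other cells, 4 of 8 T cell genes (no peak at Cd3d, Cd2, Cd4 or Cd8a), 3 of 6 B cell genes (none at Cd79b, Ms4a1 or Pax5), 4 of 8 mature myeloid genes (none at Csf1r, Ly6g, S100a8 or S100a9) and 8 of 8 erythroid genes had one.

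Nearly every ribosomal protein gene had 1 strong peak on its start site. Below, the member peak nearest the TSS is termed the start peak of a gene. Of the 76 start peaks, 73 (96.1%) had their center within 200 bp of the TSS, against 75.8% of the start peaks of 15888 genes, and the median offset was -23.0 bp, where negative is upstream. Of the start peaks, 75 were in the peak lists of both groups, and that of Rpl7, a large-subunit protein, was in the tamoxifen list alone. Genes differed in the number of peaks within the limit. There was 1 peak at 12 genes, 2 at 26, 3 at 14, 4 at 12, 5 at 6 and 6 at 4 genes, with 7 at 1 gene and 9 at Rplp1, which encodes a protein of the ribosomal stalk. By annotation, 105 members lay at a promoter, 47 in an intron, 44 in intergenic sequence, 17 at a transcription end and 7 in an exon, so that several lay at the end of a neighboring gene.

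Accessibility fell steeply with distance from the start. The median level was 2349 normalized tags per 1000 bp of peak (all levels below are on this scale or are normalized tags per peak) for the 74 member peaks within 200 bp, 1598 for the 20 at 200 to 500 bp, 243 for the 32 at 500 to 1000 bp, 163 for the 68 at 1000 to 2000 bp and 119 for the 30 at 2000 to 3000 bp. Over all promoter-proximal peaks these medians were 1752, 659, 259, 156 and 148. Member peaks thus had the higher median up to 500 bp and medians of similar size beyond it. The Rps19 locus was an exception in having a strong peak away from its annotated start, with 3186 tags per 1000 bp at -546 bp. Just inside the limit, a peak at -2989 bp from Rps7 had 133 normalized tags and a log2 fold change (tamoxifen over oil) of -0.13, and just outside it, a peak at -3003 bp from Rplp0 had 169.8 and -0.22.

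**Figure D1:**
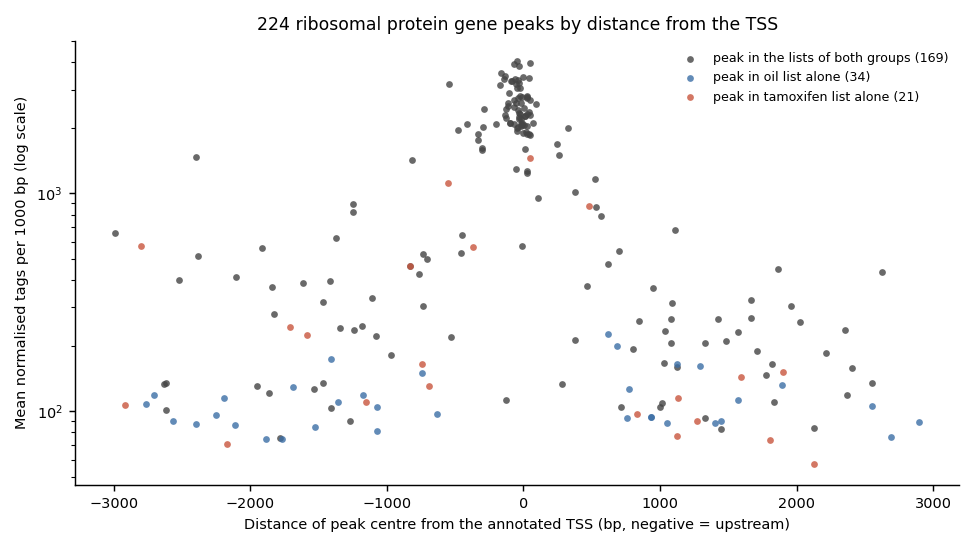
Mean normalized tags per 1000 bp (6 libraries, log scale) of the 224 ribosomal protein gene peaks against the distance of the peak center from the TSS. Gray points mark peaks in the lists of both groups (169), blue points the oil list alone (34) and red points the tamoxifen list alone (21), and the strongest peaks cluster at the start site.

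Start peaks of different ribosomal protein genes were of like height. Their median level was 2329 tags per 1000 bp, with quartiles at 2059 and 2836, a 1.38-fold range, and 72 of 76 exceeded 1000. The median start peak ranked at percentile 89.9 of all promoter-proximal peaks and at percentile 72.7 of the start peaks of all genes, and 69 of the 76 lay above the median of the latter. The coefficient of variation over the 6 libraries had a median of 5.10%. In the order of levels, only 5 of 75 neighboring pairs differed by more than their summed SDs: Rpl37a over Rps4x, Rpl7 over Rps26, Rpl19 over Rpl7a, Rpl4 over Rps4l and Rps4l over Rpl3l, all in the lower tail. The order among the other neighbors is therefore not resolved. Across the 76 genes the mean levels after oil and tamoxifen correlated at a Pearson r of 0.996 and a Spearman rho of 0.993, as a description over genes that share the same 6 libraries.

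**Figure D2:**
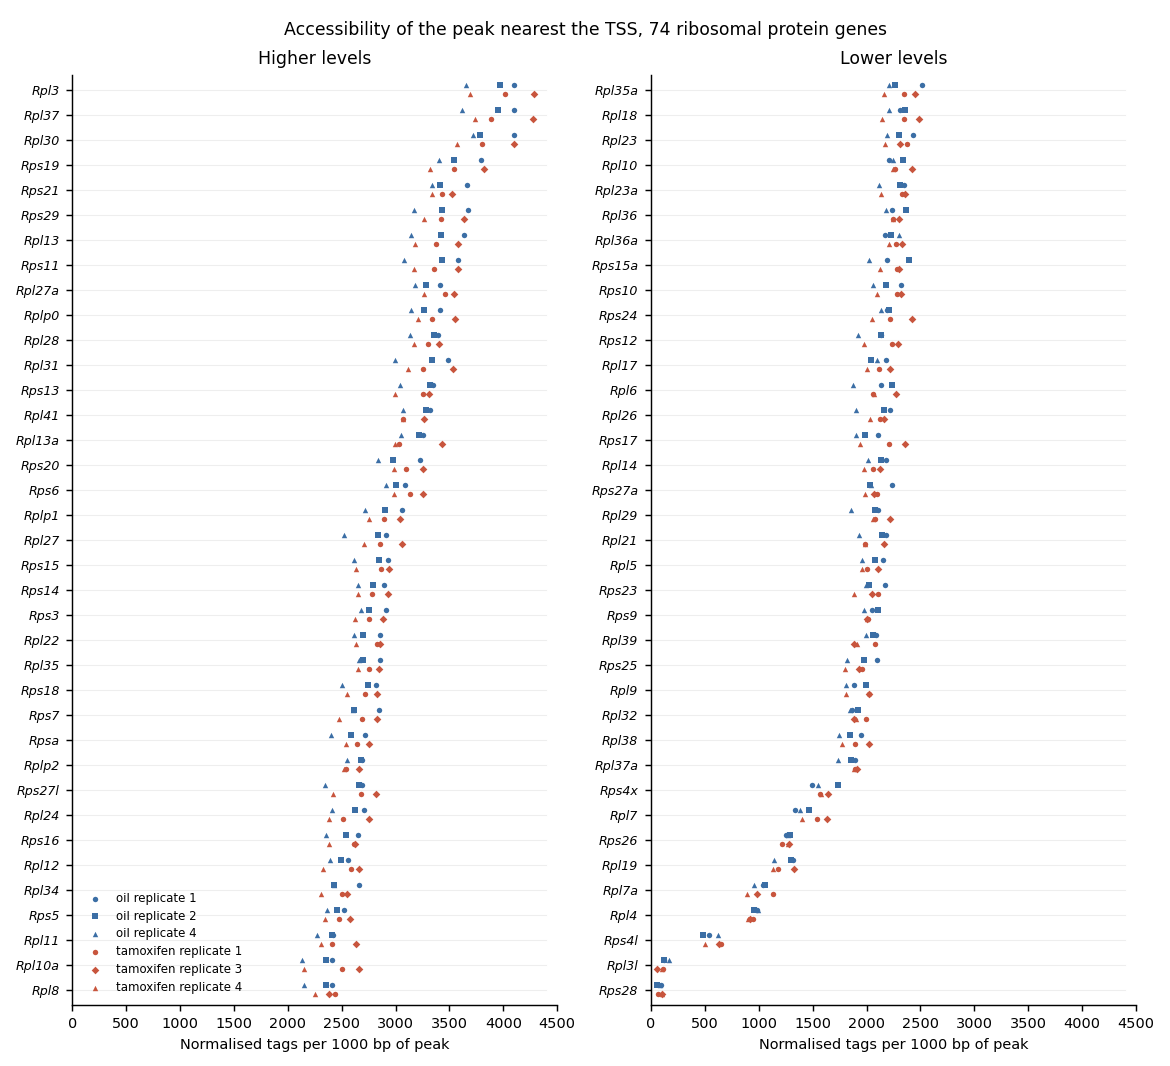
Normalized tags per 1000 bp at the start peak of 74 of the 76 ribosomal protein genes in order of mean level, with 1 point per library (blue, oil; red, tamoxifen). From Rpl3 at 3953 to Rpl37a at 1863 the levels fall gradually with the colors intermixed, and the last 9 genes drop further to 83.6 for Rps28.

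Rpl3, Rpl37, Rpl30 and Rps19 were among the 5 highest start peaks. Rpl3, which lies near the site of peptide bond formation, had 845, 818 and 753 normalized tags after oil and 827, 882 and 759.8 after tamoxifen (chromosome 15, 80083253 to 80083458). The groups overlapped, with the lowest value in oil replicate 4 and the highest in tamoxifen replicate 3, and the log2 fold change was 0.03 (SE 0.086, DESeq2 adjusted p = 0.987). Rpl37, a large-subunit protein, had 824, 795 and 728 after oil and 781, 860.2 and 751 after tamoxifen (chromosome 15, 5116447 to 5116647). The same libraries were thus highest and lowest at Rpl3 and Rpl37, and the fold change of Rpl37 was 0.03 on the log2 scale. Rpl30 reached 3845 tags per 1000 bp, with a log2 fold change of -0.02. Rpl37 carries the ETS motif printed above, and member genes with the motif had a median level of 2606 tags per 1000 bp against 2298 without it.

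The low end held genes with a special annotation. Rpl3l, a paralog of Rpl3 that is expressed mainly in heart and skeletal muscle, reached 112.5 tags per 1000 bp at its start (chromosome 17, 24727523 to 24727880), at percentile 11.2 of the start peaks of all genes. Rps4l, which the deposited table types as a pseudogene, had 148, 131 and 170.2 normalized tags after oil and 178, 172 and 138 after tamoxifen (chromosome 6, 148354512 to 148354784), or 571 per 1000 bp. Its groups overlapped and its log2 fold change was 0.11 (SE 0.17). The start peak of Rpl4 reached 949 per 1000 bp and that of Rpl7a 1011, but the latter lay at +375 bp.

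Some genes had their start peak booked to a neighbor. RefSeq lists 81 genes with mRNA that fit the naming rule. Of these, 73 had a peak within 300 bp of an mRNA start under their own name, 5 had it under the name of a neighbor that starts close by, and Rpl10l, Rpl32l and Rpl39l had no peak there. The 5 are the start peaks of Rpl15 (named for Nkiras1), Rpl7a (Med22), Rps2 (Snhg9), Rps27 (Rab13) and Rps28 (Ndufa7), and by the rule they are not members. Rps28 therefore entered with a peak at +2124 bp (chromosome 17, 33822121 to 33822755) of 83.6 tags per 1000 bp, the lowest of the 76, whereas its annotated start carried 600.1, 569 and 516 normalized tags after oil and 571, 584 and 521 after tamoxifen (chromosome 17, 33824480 to 33824697). The Rpl7a start carried 639.8, 651 and 594 after oil and 702, 709 and 577 after tamoxifen (chromosome 2, 26910582 to 26910803). The groups overlapped at both, and the log2 fold changes of the 5 ran from -0.0062 at Rps28 to 0.08 at Rpl7a. With the neighbor's name corrected, neither Rps28 nor Rpl7a would stand at the low end.

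No ribosomal protein gene peak was called as changed after tamoxifen. At an adjusted p under 0.05 (DESeq2 Wald test, Benjamini-Hochberg over all peaks), 0 of 224 members were called, where the fit called 1.39% of all peaks, 0.95% of promoter-proximal peaks and 1.4% of the start peaks of all genes. With a fold change over 2 in addition, 0 were called, against 0.654% of all and 0.301% of promoter-proximal peaks. These shares are near 0 as well, so the count of 0 is not in itself particular to ribosomal protein genes. The smallest adjusted p of a member was 0.457. At an unadjusted p under 0.05 there were 3 members, against 9.02% of all peaks and 6.41% of promoter-proximal peaks: Rpl8 at +1866 bp (log2 fold change 0.44), Rps14 at +571 bp (-0.33) and Rpl34 at -1359 bp (-0.69). All 3 lay away from the start. The edgeR quasi-likelihood test also called 0 members, against 1.91% of promoter-proximal peaks, with 14 (6.25%) at an unadjusted p under 0.05, against 13.4% of promoter-proximal and 17.6% of all peaks.

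The size of the fitted change was also bounded. These bounds hold for counted tags. From the shallowest to the deepest library of each group, raw tags of the start peaks rose less than the size factors did (values below). Whether a change in accessibility is likewise understated was not tested. A test that the change is smaller than 2-fold (DESeq2, adjusted over all peaks) passed at 202 of 224 members (90.2%), against 81.1% of all peaks and 88.7% of promoter-proximal peaks. At the start peaks it passed at 75 of 76 (98.7%), against 91.4% of the start peaks of all genes, and the exception was Rpl3l (adjusted p = 0.118). At the other 148 members it passed at 127 (85.8%), against 87.6% of such promoter-proximal peaks. The 95% interval of the log2 fold change lay within ±0.5 (1.41-fold) at 74 start peaks and within ±0.25 (1.19-fold) at 62, with a median half-width of 0.18.

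The fitted changes centered on 0. Their median was 0.0011 on the log2 scale over the members, 0.0097 over the start peaks and -0.03 over the other members, against -0.0013 over all peaks and -0.01 over promoter-proximal peaks. Their SD was 0.083 over the start peaks and 0.24 over the other members, against 0.28 over promoter-proximal peaks. Of the start peaks, 71 (93.4%) lay within ±0.1, against 61.2% of the start peaks of all genes. Without Rpl3l and Rps28, the 74 others ran from -0.08 at Rpl4 to 0.13 at Rpl7.

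**Figure D3:**
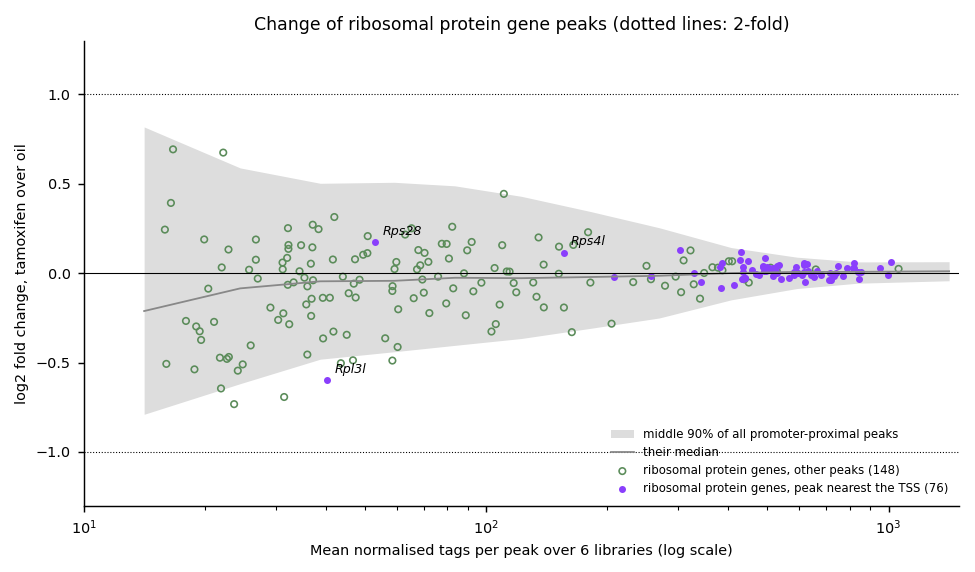
Fitted log2 fold change (tamoxifen over oil) against mean normalized tags per peak (log scale), with start peaks of ribosomal protein genes as filled points (76), their other peaks as open circles (148), and the middle 90% and median of all promoter-proximal peaks as a gray band and line. No point passes the dotted 2-fold lines, and the points narrow toward 0 as tags rise, as the band does.

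High tag counts went with small fitted changes in all genes, so start peaks were also set beside others of the same level. Over 1000 tags per 1000 bp, 70 of 72 ribosomal protein start peaks (97.2%) had a log2 fold change within ±0.1, against 87.7% of 8809 start peaks of other genes. Between the member quartiles of level, 37 of 38 (97.4%) did, against 93.2% of 2835 others, with an SD of 0.034 against 0.056. Between the quartiles, the change was smaller than 2-fold by the test at 38 of 38 and 2835 of 2835. At matched level, start peaks of ribosomal protein genes were thus close to those of other genes, and the difference in these shares was not tested.

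Groups that did not overlap were rare at the start peaks. In both groups the shallowest library had the highest and the deepest the lowest sum over these peaks (values below). This widens both groups and makes overlap more likely, and its part in the counts was not tested. All tamoxifen values lay on 1 side of all oil values at 24 of 224 members (10.7%), 4 higher and 20 lower after tamoxifen, against 21.8% of all peaks and 19.1% of promoter-proximal peaks, of which 8.07% were higher and 11.0% lower. Of the 20 lower, 8 were in the oil list alone (8 of 34, 23.5%, against 25.1% of such promoter-proximal peaks). Of the 4 higher, 2 were in the tamoxifen list alone (2 of 21, 9.52%, against 21.5%). These lists come from the libraries compared, so the split by direction partly reflects peak calling. At the start peaks this was so at 2 of 76, Rpl3l and Rpl4, both lower, against 16.5% of the start peaks of all genes in either direction and 5.73% lower. Between the quartiles of level, the groups did not overlap at 0 of 38 member start peaks and at 6.03% of the others. At the other members the count was 22 of 148 (14.9%), against 20.2% of such promoter-proximal peaks. Leaving out a library raises such counts by construction. Without tamoxifen replicate 4, 63 of 224 members (28.1%) did not overlap, 25 higher and 38 lower, against 38.4% of promoter-proximal peaks, and 50 of the 148 other members (33.8%) did not, 14 higher and 36 lower, against 40.2%. Without any 1 of the other libraries, 37 to 50 of the 224 did not overlap, against 26.4% to 29.4%, and 33 to 42 of the 148, against 27.6% to 30.3%. At the start peaks, without tamoxifen replicate 4 it was 13 of 76 start peaks, 11 of them higher, against 34.1% of the start peaks of all genes. Without any 1 of the other libraries it was 4 to 8 of 76, against 21.5% to 27.1%. The 8 arose without oil replicate 4, with 0 higher and 8 lower, so the direction depended on the library left out.

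The fitted change of Rpl4, a large-subunit protein that lines the exit tunnel, shows how little separated the groups at a start peak. Its values were 397, 386 and 399.6 normalized tags after oil and 383, 369.9 and 365 after tamoxifen (chromosome 9, 64173296 to 64173699). The lowest oil value exceeded the highest tamoxifen value, and the log2 fold change was -0.08 (SE 0.10, DESeq2 adjusted p = 0.942). The opposite end was Rpl7, with 278, 304 and 287 after oil and 321, 339.8 and 291 after tamoxifen (chromosome 1, 16104280 to 16104487). Here the groups overlapped, with a log2 fold change of 0.13 (SE 0.12, adjusted p = 0.881). A stronger Rpl7 peak at -417 bp, in the lists of both groups, had a log2 fold change of 0.024 (SE 0.074). It had 1032, 1071 and 1046 normalized tags after oil and 1065, 1123 and 1017 after tamoxifen.

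Peaks with the most extreme fitted changes were weak and lay away from the start, except that of Rpl3l. The 4 highest were at Rpl35 (+1805 bp, 0.69), Rpl29 (+1272 bp, 0.67), Rpl8 (+1866 bp, 0.44) and Rps15a (-2173 bp, 0.39). Among the 4 lowest were Rpl27 (-636 bp, -0.73), Rpl34 (-1359 bp, -0.69) and Rpl3l (-128 bp, -0.60). Apart from Rpl8, which reached 452 tags per 1000 bp, these levels ran from 70.7 to 112.5. Adjusted p-values (DESeq2) of the 8 ran from 0.457 to 0.938. The start peaks of the genes named here other than Rpl3l had log2 fold changes from -0.03 (Rpl34) to 0.07 (Rpl29), so the extremes were not shared by the start sites.

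The Rpl8 peak, which lies in exon 5 of 6 of this large-subunit gene (chromosome 15, 76905815 to 76906059), had 101, 93.6 and 86.0 normalized tags after oil and 124, 163 and 96.8 after tamoxifen. The groups overlapped, and tamoxifen replicate 3 alone was far above the rest (SE 0.21). The Rpl35 peak (chromosome 2, 39003214 to 39003438) had 13.2, 9.75 and 15.2 after oil and 18.4, 21.2 and 22.3 after tamoxifen. Its groups did not overlap, but the counts were small and the SE was 0.46. The Rpl27 peak (chromosome 11, 101441488 to 101441730) had 37.5, 28.3 and 23.3 after oil and 16.4, 12.3 and 24.2 after tamoxifen, with overlap through replicate 4 of either group (SE 0.41).

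Rpl3l had fewer tags after tamoxifen at each of its 5 peaks, without passing the test at any. At its start peak it had 41.9, 42.9 and 60.9 normalized tags after oil and 38.7, 20.1 and 37.2 after tamoxifen. The groups did not overlap, but the gap was small beside the spread, and the log2 fold change was -0.60 (SE 0.32, DESeq2 adjusted p = 0.608, 95% interval -1.23 to 0.04). The strongest of the 5, at -1419 bp, had 119, 119 and 111 after oil and 104, 74.7 and 106 after tamoxifen. The groups did not overlap there either, and the fold changes of the 5 peaks ran from -0.60 to -0.28 on the log2 scale. These peaks lie close together and are not independent. Rpl3l, a gene that is not housekeeping, thus held 5 of the 24 members whose groups did not overlap, and 5 of 63 without tamoxifen replicate 4.

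Away from the start, the median changes of members upstream and downstream differed in sign, with changes of both signs on either side. The change was above 0 at 24 of 78 upstream and 42 of 70 downstream. The median log2 fold change was -0.09 over 78 other members upstream of the start and 0.04 over 70 downstream of it, against -0.07 and -0.03 over all other promoter-proximal peaks. Groups did not overlap and were lower after tamoxifen at 14 of the 78 (17.9%) and 4 of the 70 (5.71%), against 15.5% and 11.7%. Without tamoxifen replicate 4 this was so at 25 of the 78 (32.1%) and 11 of the 70 (15.7%), against 28.9% and 22.97%. The difference between the sides was not tested. Members in the oil list alone had a median of -0.31 and those in the tamoxifen list alone 0.09, against -0.24 and 0.16 for promoter-proximal peaks of the same lists, and these lists come from the very libraries compared. Of 40 erythroid marker peaks, 18 (45.0%) did not overlap and were lower after tamoxifen, against 11.0% of promoter-proximal peaks, and without tamoxifen replicate 4 this was so at 25 (62.5%), against 21.3%. DESeq2 called 0 of the 40 (4 at an unadjusted p under 0.05) and edgeR called 1. Their summed normalized tags ran from 7045 to 7369.8 after oil and from 6549 to 6776 after tamoxifen. Of 39 peaks of leukemic myeloid progenitor markers, DESeq2 called 2, both higher after tamoxifen, against 0.95% of promoter-proximal peaks. It called 0 of 10 T cell, 0 of 13 B cell and 0 of 12 mature myeloid marker peaks. The median log2 fold change was -0.17 over the erythroid peaks and 0.0054 over the progenitor peaks. Over T cell, B cell and mature myeloid marker peaks it was -0.19, 0.030 and 0.024. The summed tags of the other 148 members ran from 16588 to 16811 after oil and from 16001 to 16850.0 after tamoxifen, with overlap, and the part of erythroid cells in these values was not tested. The cells were sorted as Lin- c-Kit+ and GFP-marked. The lineage cocktail listed in the methods for stem cell analysis held Ter119, a marker of mature erythroid cells. The content of the cocktail used for the spleen sort is not stated there, and whether erythroid cells remained was not tested.

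The 9 genes mutated in Diamond-Blackfan anemia or leukemia, or whose proteins bind Mdm2, were each within ±0.1 at the start peak. Rps19, the gene most often mutated in Diamond-Blackfan anemia, had 1059, 989 and 949.7 normalized tags after oil and 989, 1066 and 926 after tamoxifen (chromosome 7, 24884290 to 24884568). The groups overlapped almost fully, with a log2 fold change of -0.0083 (SE 0.081). Rpl11, which with Rpl5 restrains Mdm2 and so stabilizes p53 when ribosome assembly fails, had 632, 628 and 593 after oil and 630.2, 686 and 603 after tamoxifen (chromosome 4, 136053283 to 136053543). Here tamoxifen replicate 3 was highest and oil replicate 4 lowest, with a log2 fold change of 0.050 (SE 0.089). Rpl5 had 464, 449 and 422 after oil and 433, 456 and 423 after tamoxifen (chromosome 5, 107900403 to 107900618), again with overlap and a log2 fold change of -0.025 (SE 0.10).

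Rps26, at the exit of the mRNA channel, had a lower start peak than the other 8 of these genes, with 255, 261 and 258 after oil and 247, 261 and 259 after tamoxifen (chromosome 10, 128626378 to 128626580). It was the most even of the 9, and its log2 fold change was -0.014 (SE 0.12). A stronger neighbor at -295 bp reached 2029 tags per 1000 bp, against 1265 at the start peak. For Rps14, whose loss causes the anemia of the 5q- syndrome, Rps24, Rpl35a, Rpl22 and Rpl10, of which the last 2 are mutated or deleted in T cell leukemia, the log2 fold changes ran from -0.0044 (Rpl35a) to 0.036 (Rps24). The change was tested as smaller than 2-fold at 9 of 9.

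The proteins of the stalk, which recruits translation factors, and the laminin receptor gave the same picture. Rplp0, the base of the stalk and a common reference gene in PCR, had 772, 737 and 709.6 normalized tags after oil and 754, 803 and 724 after tamoxifen (chromosome 5, 115559312 to 115559537). The groups overlapped, and the log2 fold change was 0.040 (SE 0.083). For Rplp1, Rplp2 and Rpsa, which encodes a small-subunit protein also known as the laminin receptor, it was 0.0012, -0.035 and 0.044. All 4 were tested as changed less than 2-fold. Rps6, whose protein is phosphorylated downstream of mTOR, had 619.9, 605 and 585 after oil and 630.2, 655 and 599.7 after tamoxifen, with a log2 fold change of 0.059 (SE 0.088). Of the paralogs, Rps27l, a p53 target, had 545, 540.2 and 477 after oil and 543, 573 and 492 after tamoxifen (chromosome 9, 66945969 to 66946171), with a log2 fold change of 0.042 (SE 0.099). Rpl39l had distal peaks only and Rpl10l had no peak under its name.

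Other genes of the ribosome and of translation behaved similarly. Of 13 peaks at ribosomal protein genes outside the naming rule (such as Fau), 148 at mitochondrial ribosomal protein genes, 117 at translation factor genes and 106 at ribosome assembly genes, 0 were called. Changes were smaller than 2-fold by the test at 12 of 13, 142 of 148, 107 of 117 and 101 of 106, and at the start peaks at 6 of 6, 69 of 69, 35 of 35 and 40 of 40. The median log2 fold change of these start peaks was 0.031, 0.016, 0.014 and 0.0085. Start peaks of the small and large subunit had medians of 0.0073 and 0.012.

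**Figure D4:**
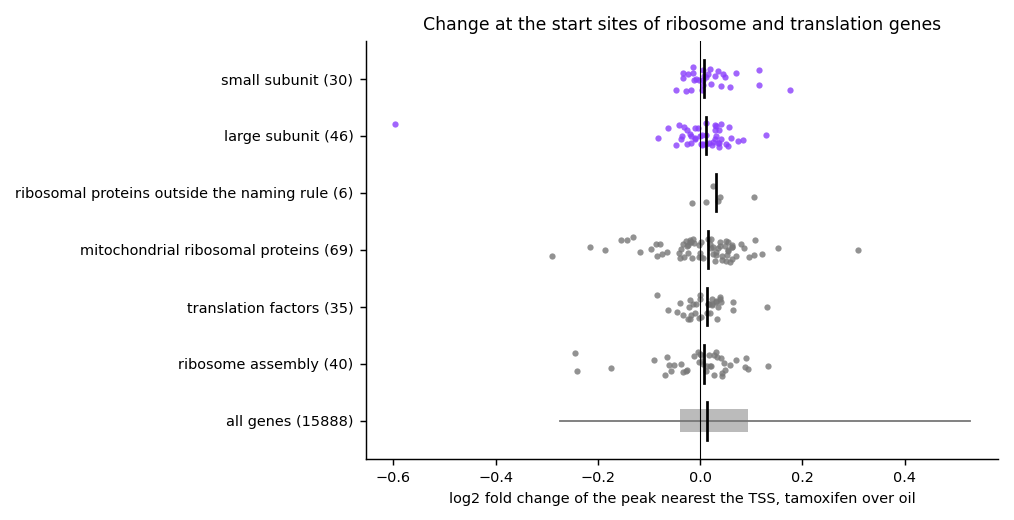
Fitted log2 fold change (tamoxifen over oil) of the peak nearest the TSS, 1 point per gene, for ribosomal protein genes (purple) and related lists (gray), with the median as a black line. The bar and line for all 15888 genes give quartiles and the middle 90%, and the single purple point at -0.60 is Rpl3l.

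The share of all tags in peaks that lay in members did not separate the groups. It was 0.313%, 0.308% and 0.300% in oil replicates 1, 2 and 4 and 0.304%, 0.312% and 0.299% in tamoxifen replicates 1, 3 and 4. The oil mean was 0.307% ± 0.0067 and the tamoxifen mean 0.305% ± 0.0068 (SD, n = 3 libraries each), a difference below the spread. In both groups replicate 4 was lowest.

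Within each group, the shares ran in the reverse order of sequencing depth, and the reason was not tested. Normalized tags summed over the 76 start peaks were 43671, 42362 and 39936 in oil replicates 1, 2 and 4, whose size factors were 0.907, 1.03 and 1.12. In tamoxifen replicates 1, 3 and 4 the sums were 42516, 44277 and 40166 at size factors of 1.03, 0.898 and 1.07. Within each group, the library with the smallest size factor had the highest sum and the one with the largest the lowest. The raw tags of the start peaks rose 1.13-fold from oil replicate 1 to oil replicate 4 and 1.09-fold from tamoxifen replicate 3 to 4, where the size factors rose 1.23-fold and 1.20-fold. In the other 148 members the raw tags rose 1.23-fold and 1.21-fold.

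The same held for all promoter-proximal peaks according to tag density. The ratio of raw tags between oil replicates 4 and 1 fell in every step, from 1.29 in peaks under 0.25 raw tags per bp to 1.11 in peaks over 3, and that between tamoxifen replicates 4 and 3 fell from 1.24 to 1.08. The start peaks of ribosomal protein genes had a median of 2.34 raw tags per bp, and 61 of 76 exceeded 2, so they lay in the range of the smaller ratios. The deposited tags were counted with at most 3 per position, and whether this limit, duplicates or another step gave the smaller ratios was not tested. Each group held a deep and a shallow library, and the mean size factor was 1.02 after oil and 1.00 after tamoxifen.

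**Figure D5:**
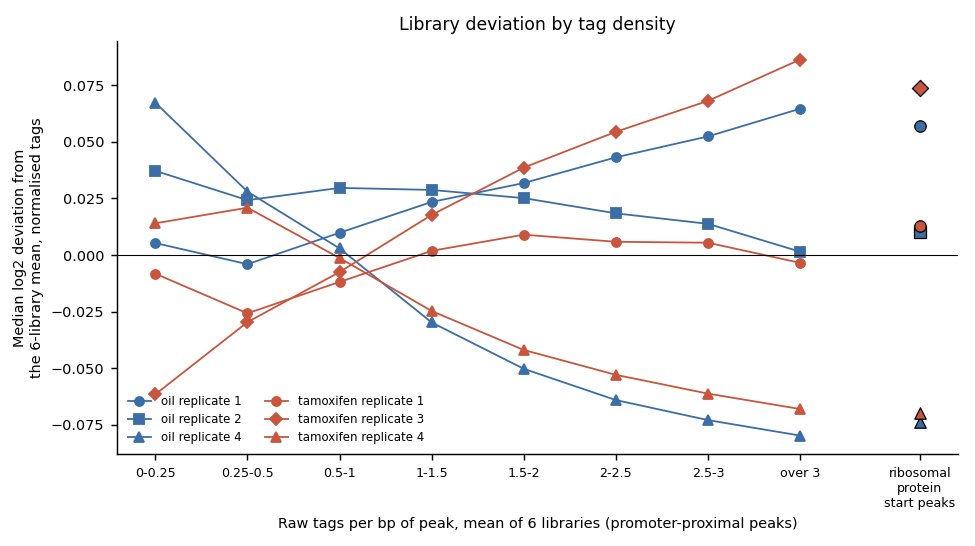
Median log2 deviation of normalized tags from the mean of the 6 libraries, for promoter-proximal peaks in classes of raw tags per bp (lines) and for the 76 ribosomal protein start peaks (outlined points at the right). Oil replicate 4 and tamoxifen replicate 4, the deepest libraries of each group, fall below 0 as density rises, and oil replicate 1 and tamoxifen replicate 3, the shallowest, rise above it.

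Used as a reference, the members left the scale of the data almost as it was. Size factors from the 224 members alone were 0.969 to 1.03 times those from all peaks. Over the whole table they gave 1278 calls at an adjusted p under 0.05 and a fold over 2 (DESeq2), against 1150, and 1142 peaks were called both ways. The share of calls that were higher after tamoxifen was 91.2% and 89.9%.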

How the data were processed

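ATAC-seq was analyzed in 3 libraries after oil and 3 after tamoxifen. The authors aligned reads to mm10 with Bowtie2 and used HOMER to call peaks per group, merge the lists and count tags. The deposited values are raw tags per merged peak, estimated counts in steps of 0.5, not normalized, with a cap of 3 tags per position. A peak score was also deposited by the authors and was not used. High peaks may be limited by the cap, which was not tested, and peaks were called on the libraries compared. Tags were rounded to whole numbers and all 175929 peaks were fitted at once with DESeq2 1.42.0 (R 4.3.3; size factors by median of ratios, Wald test, Benjamini-Hochberg over all peaks), where calls needed an adjusted p under 0.05 and, by the study's rule, a fold over 2. A second test on this fit asked whether a change was under 2-fold. The study left out peaks within 3000 bp of a TSS, which would remove every member. Alternatives were edgeR 4.0.16 (quasi-likelihood, robust), TMM or total-tag size factors, a filter of 10 tags in 3 libraries, promoter-proximal peaks alone, narrower member definitions, size factors from the members, each library left out, and a replicate block. The fits were tested on simulated data. Depth ran from 57.4 to 74.7 M tags.

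Named peaks were the 4 highest and 4 lowest by fitted change, the 5 highest and 5 lowest start peaks by level, and fixed lists of disease, stalk and paralog genes. Rps6, Rpl7, the 3 members at an unadjusted p under 0.05 and the genes booked to neighbors were added after their values were seen. Some items that the rule picks are not reported here. Members and lists were chosen with earlier results of these data known. Levels are DESeq2-normalized tags, divided by peak width where given per 1000 bp. No promoter window was used for Rpl3, Rpl30, Rplp1 and Rps4l. Replicate numbers 1 and 4 occur in both groups. Pairs of libraries differed by more than counting error over all peaks (chi-square over degrees of freedom: 1.03 to 1.22 within oil, 1.48 to 2.68 within tamoxifen), and none was merged.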

Additional observations from a re-analysis of the deposited data

How the results depend on the processing

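In each alternative run, 0 members were called, with or without the fold criterion. The number tested as changed less than 2-fold was 202 of 224, and 201 to 210 with other size factors, a low-tag filter or promoter-proximal peaks alone. It was 75 of 76 with 1 peak per gene, 122 of 126 within 1000 bp of the TSS and 127 of 148 for the peaks other than the nearest, a subset added after the data were seen. Leaving out 1 library gave 189 to 197, 190 of them without tamoxifen replicate 4. Deviations of same-numbered libraries correlated at -0.044 for number 1 and 0.051 for number 4, which shows no pairing by replicate number. Counting error lowers such correlations, so they cannot exclude a pairing. With the replicate block on these 4 libraries, 148 changes were smaller than 2-fold and the median log2 change was -0.022, and the same 4 libraries without the block gave 168. The median log2 change over all members ran from -0.025 to 0.0135 with 1 library left out. The difference in tag share was -0.0023 percentage points (-0.0053 with the replicate block) and ran from -0.0059 to 0.00089 with 1 library left out. Of 338 values of the 30 named peaks, 337 kept their side of the threshold and 0 reversed a call. The exception was Rps28 with the replicate block, whose change of 0.16 (log2) was no longer tested as smaller than 2-fold (adjusted p = 0.0636). Near 0 the sign of a start peak carries no information, and 20 of 22 named peaks tested for a change under 2-fold turned sign in some alternative. With a median peak of 45.0 to 57.0 tags, depth limits the weak peaks away from the start most.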
